A study of Homo sapiens with 16 samples.

Results

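Promoters of protein-coding transcripts made up 14735 of the 151654 open chromatin regions (9.72%) at which acetylation of histone H3 at lysine 27 (H3K27ac) was measured in THP-1 cells. A region counted as a coding promoter where the deposited annotation placed it at the transcription start site (TSS) of a RefSeq transcript of the coding class. Each region was a window of 1000 bp, so levels could be compared between genes without a length correction. The windows belonged to 11188 genes, of which 8285 had 1 window, 2380 had 2 and 523 had 3 or more, up to 7. A gene was described by its lead promoter, the window with the highest mean level over all 8 libraries. Because 40.5% of the windows overlapped another coding promoter window, windows of a locus share reads. For 1246 windows (8.46%) the nearest TSS was that of another gene, and H3K27ac there cannot be given to either gene alone.

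THP-1 is a human cell line from an acute monocytic leukemia. The 4 groups were WT cells, labelled as carrying Cas9 only, and cells with a CRISPR knockout of USP18 (USP18 KO), each left untreated or treated with interferon alpha (IFN) at 1000 U/ml for 6 h, with 2 H3K27ac libraries in each group. The knockout cells were grown from sorted single cells, so the effect of the deletion and features of the clone cannot be told apart. USP18 itself had no window among the coding promoters, and the targeted gene was therefore not checked here. The comparisons asked how IFN changed promoter acetylation in WT and in USP18 KO cells, and how the 2 genotypes differed before and after IFN.

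H3K27ac is laid down by the acetyltransferases CBP and p300 on nucleosomes beside active promoters and enhancers, and promoters differ from enhancers in being acetylated in most cell types. Type I IFN binds the receptor pair IFNAR1 and IFNAR2, activates the kinases JAK1 and TYK2, and sends a complex of STAT proteins with IRF9 to a DNA element called the IFN-stimulated response element (ISRE), which lies in the promoters of many IFN-stimulated genes. USP18 removes the ubiquitin-like protein ISG15 from its targets and also holds back signaling at the receptor.

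The core letters of the ISRE (GAAA, any 2 bases, GAAA) were searched on both strands of every window. They were present in 10.3% of all coding promoters and in 9 of the 11 promoters named below for the largest rises by IFN or the largest excess of the IFN effect in USP18 KO cells. These sites are shown because they stand in the promoters that carry the IFN results. Each line gives the core nearest to the TSS on the strand that reads these letters, with the core in capitals and 9 flanking bases on each side.
AIM2: cactgattgGAAACAGAAAgtggcctag
CXCL10: catgttttgGAAAGTGAAAcctaattca
EPSTI1: tgattctgaGAAACCGAAActcagctgt
IFI27: ggtttcctgGAAAATGAAAcctatctca
IFI44L: cctagtgagGAAAAAGAAAgttagtggc
IFI6: cagagtgcaGAAATAGAAActccgacag
IFITM1: aaacagcagGAAATAGAAActtaagaga
OAS3: gccgggcggGAAAACGAAAccagaaatc
RSAD2: tccacatgtGAAACTGAAAgttgaaaca

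The cores lay within 182 bp of the TSS used by the deposited annotation (positions in hg38). In IFITM1 (chr11:314000-314009, plus strand) and OAS3 (chr12:112938462-112938471, plus strand) the core began 9 and 29 bp downstream of the TSS in an exon outside the coding part. The core of IFI44L (chr1:78620375-78620384, plus strand) spanned the TSS, and that of RSAD2 (chr2:6877632-6877641, minus strand) ended 24 bp upstream of it, both inside a noncoding part of an annotated exon. These positions depend on the annotation. The RefSeq TSS was at 314040 in IFITM1, 112938474 in OAS3 and 78620448 in IFI44L, and their cores lay upstream of it. In RSAD2 the RefSeq TSS was at 6865885, and the core lay downstream of it. In AIM2 (chr1:159076947-159076956, plus strand) and IFI27 (chr14:94110641-94110650, plus strand) the core fell in an intron of a longer transcript, upstream of the TSS. The cores of CXCL10 (chr4:76023709-76023718, minus strand) and IFI6 (chr1:27672276-27672285, minus strand) lay upstream of the TSS, outside the annotated transcripts of the gene. The core of EPSTI1 (chr13:42992282-42992291, minus strand) began 21 bp downstream of the TSS of the deposited annotation. It too lay outside the transcripts of the gene in the annotation used for exons and introns. EPSTI1 and IFI6 had 3 cores in the window, IFI27, IFI44L, IFITM1 and OAS3 had 2, and AIM2, CXCL10 and RSAD2 had 1. The windows of CXCL11 and GBP2 held none of these letters. A match is a description of the sequence and does not show binding.

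The libraries held 9046141 to 12935454 tags over all regions, and replicates correlated at 0.983 to 0.986 (Pearson, log2 scale, across tested promoters). Of the coding promoters, 13961 had at least 10 counts in at least 2 libraries and were tested, and 774 were not. Of the 10 monocyte and macrophage markers, 9 had a tested promoter, and their summed level was 195 to 213 CPM (counts scaled to library size) in the WT libraries and 316 to 406 CPM in the USP18 KO libraries. These sums are scaled on all regions, where the median coding promoter was also higher in KO than in WT cells. The markers did not move together. SPI1, FCER1G and TYROBP had higher values in all KO libraries. MNDA had 16.5 and 19.5 CPM in untreated WT and 5.67 and 5.29 CPM in untreated KO cells. With IFN the KO libraries lay above the WT libraries at MNDA. LYZ had 11.4 and 11.0 CPM in IFN-treated WT and 5.68 and 4.60 CPM in IFN-treated KO cells. Without IFN the KO libraries lay above the WT libraries at LYZ. CD68 was lower in KO than in WT cells without IFN and higher with IFN. At CD33, CSF1R and ITGAM the genotypes overlapped. Of 6 T cell markers only CD8A had a tested promoter, at 0.577 to 1.42 CPM, and of 5 markers each of B, erythroid, epithelial and fibroblast cells 0 had one.

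The median level of coding promoters was 12.6 CPM, against 1.93 CPM for all other regions tested. The level was unevenly spread, and the highest 10% of the promoter windows held 36.7% of the promoter signal. Precision followed the level, with a median SD between replicates of 0.31 (log2) in the lowest of 5 level classes of equal size and 0.099 in the highest.

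The 7 highest lead promoters of the genome all lay in a stretch of about 1 Mb on the short arm of chromosome 1. CAP1, which encodes an actin-binding protein, reached a mean of 1546 CPM, NFYC, a subunit of the CCAAT-binding factor NF-Y, 993 CPM, and MFSD2A, a lysolipid transporter, 675 CPM. ZMPSTE24, the protease that matures lamin A, and SMAP2 followed at 415 and 409 CPM. The high signal was not limited to promoters: the 15 lead promoters of the stretch had a median of 182 CPM, and its 162 other regions a median of 19.0 CPM. On one side the next lead promoter outside it, TRIT1, had 65.5 CPM, and on the other side SCMH1 had 172 CPM, close to the median of the stretch. The stretch was high in every library: CAP1 had 1243 and 1241 CPM in untreated WT cells, 1312 and 1306 CPM in IFN-treated WT cells, 1726 and 1649 CPM in untreated KO cells and 2068 and 1823 CPM in IFN-treated KO cells. The cause was not tested. The 22 promoter windows of the stretch held 2.96% of the promoter signal.

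A larger share of the H3K27ac tags fell in coding promoters in USP18 KO than in WT cells. The share was 24.7% and 24.4% of the tags over all regions in untreated WT cells and 25.3% and 24.2% in IFN-treated WT cells. It was 28.8% and 29.2% in untreated KO cells and 29.7% and 29.4% in IFN-treated KO cells. The genotypes did not overlap. Within WT cells the treatments overlapped, and within KO cells the IFN-treated libraries lay above the untreated ones. The mean was 29.3% ± 0.35 (SD, n = 4) in KO and 24.7% ± 0.48 (SD, n = 4) in WT libraries. Each n = 4 pools the untreated and IFN-treated libraries of a genotype, so the SD and the test below include any difference between treatments. On the log2 scale of promoter over other tags the difference was 0.34 (exact permutation test, two-sided p = 0.0286, the smallest that 4 against 4 libraries allow). Relative to all tags of a library the share was 11.7% in KO and 9.06% in WT cells, and without the chromosome 1 stretch the log2 difference was 0.34. Every KO library also had a larger part of all its tags in the open regions than any WT library. These regions held 9046141 to 10291674.5 of 24712371 to 28198188.5 tags in WT libraries. In KO libraries they held 10841826.5 to 12935453.5 of 28217098 to 30501088.5 tags. Whether the share and the shifts between genotypes follow from this was not tested.

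**Figure D1:**
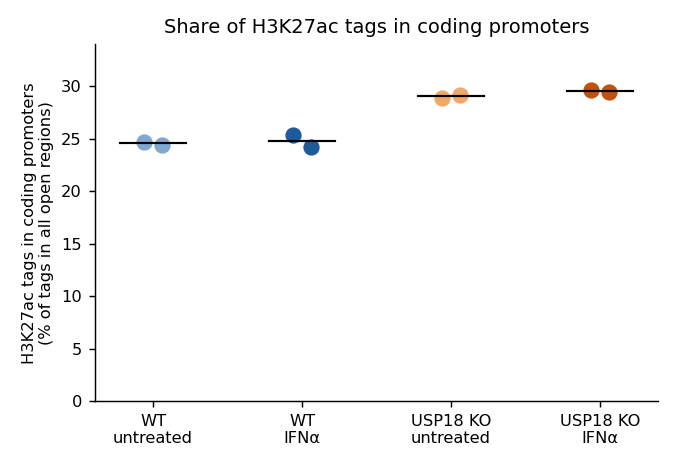
Share of H3K27ac tags in coding promoters, as percent of the tags in all open regions, for the 2 libraries of each group (points) and the group mean (line). The 4 USP18 KO libraries lie between 28.8% and 29.7%, above the 4 WT libraries at 24.2% to 25.3%.

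This share sets the scale of any comparison between the genotypes. Scaled on all regions (TMM factors over every region tested), the median coding promoter was 0.35 higher (log2) in KO than in WT cells without IFN and 0.41 higher with IFN. Scaled on coding promoters alone, the medians were 0.0022 and -0.0050, near 0 by construction. For IFN in KO cells the medians on these scales were 0.06 and -0.0093. Counts and list medians between the genotypes are therefore given on both scales, and single values are on the scale of all regions unless the text says otherwise. Called promoters are those with a log2 fold change over 1 in size and an adjusted p under 0.05 (edgeR quasi-likelihood test, Benjamini-Hochberg adjustment over all regions tested).

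IFN raised few coding promoters in WT cells, and the 5 largest rises were at known IFN-stimulated genes. 66 windows of 54 genes were called higher, 0.473% of the coding promoters tested against 0.344% of all regions, and 3 windows were called lower, 0.0215% against 0.0381%. The median over coding promoters was -0.0021. Scaled on promoters alone, 60 were higher (0.43%) and 2 lower (0.0143%). Leaving out replicate 1 of IFN-treated WT cells left 0 lower calls.

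The 5 largest rises in WT cells were at IFI27, IFI44L, EPSTI1, OAS3 and IFI6. IFI44L (chr1:78619852-78620852) had 0.723 and 0.998 CPM in untreated and 18.0 and 16.3 CPM in IFN-treated WT cells, a log2 fold change of 4.29 ± 0.26 (SE, n = 2 in each group, adjusted p = 2.5e-24). In KO cells its values were 0.349 and 0.77 CPM without and 46.5 and 40.7 CPM with IFN. The IFN-treated libraries of each genotype lay far above the untreated libraries, and those of KO cells were the highest.

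IFI27, a mitochondrial protein induced by IFN, rose from 0.413 and 0.272 CPM to 7.63 and 8.10 CPM in WT cells and from 1.05 and 1.44 CPM to 15.2 and 17.7 CPM in KO cells. Its window was chr14:94110180-94111180, and its fold was the largest in WT cells (4.49 ± 0.38, adjusted p = 2.0e-16). EPSTI1 (chr13:42991783-42992783) went from 0.413 and 0.454 CPM to 6.14 and 7.08 CPM in WT cells, a log2 fold change of 3.89 ± 0.36. OAS3 (chr12:112937923-112938923), an oligoadenylate synthetase that activates RNase L on viral RNA, rose by 2.84 ± 0.29, and IFI6 (chr1:27671796-27672796) by 2.37 ± 0.19 on the log2 scale. DGKD, a diacylglycerol kinase, was the largest fall, from 5.89 and 5.81 CPM to 2.87 and 2.77 CPM (log2 -1.05 ± 0.26, adjusted p = 0.020). That call was lost when any of the 4 WT libraries was left out.

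In USP18 KO cells IFN raised 513 coding promoter windows of 418 genes and lowered 209 windows of 177 genes. These were 3.67% and 1.5% of the coding promoters tested, against 7.14% and 4.28% of all regions. The median over coding promoters was 0.06 (log2). With promoters scaled alone, 463 were higher (3.32%) and 250 lower (1.79%), and 463 and 206 were called on both scales. The offset between the scales was small and nearly constant (median 0.065, SD 0.0013), so this overlap was largely fixed beforehand. Of the 66 windows raised in WT cells, 65 were also raised in KO cells, 98.5% of the WT list and 12.7% of the KO list, and the exception was a window of AXL, a receptor tyrosine kinase. The windows raised in WT cells had medians of 1.44 in WT and 2.96 in KO cells (log2), and 61 of 66 had the larger fitted value in KO cells. No window was lowered in both genotypes. With only 3 windows lowered in WT cells and 1.5% of the promoters in KO cells, that overlap tells little.

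The 5 largest rises in KO cells were at IFI44L (6.28 ± 0.24), IFITM1 (5.10 ± 0.16), RSAD2 (4.83 ± 0.33), AIM2 (4.70 ± 0.26) and EPSTI1 (4.53 ± 0.21), all on the log2 scale with SE. IFITM1 (chr11:313475-314475), a membrane protein that limits viral entry, had 8.57 and 7.08 CPM in untreated WT cells and 32.3 and 31.9 CPM in IFN-treated WT cells. In KO cells it had 2.71 and 1.92 CPM without IFN, below every WT library, and 86.5 and 74.6 CPM with IFN, above every WT library. RSAD2 (chr2:6877157-6878157), which encodes viperin, rose from 0.262 and 0.674 CPM to 15.5 and 11.2 CPM in KO cells and from 0.413 and 0.363 CPM to 2.58 and 1.85 CPM in WT cells.

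AIM2 (chr1:159076731-159077731), a cytosolic DNA sensor that forms an inflammasome, showed another pattern. It had 4.34 and 3.45 CPM in untreated and 4.26 and 4.72 CPM in IFN-treated WT cells, with a log2 fold change of 0.21 ± 0.25 (adjusted p = 0.88). In KO cells it had 0.611 and 0.962 CPM without IFN and 21.4 and 19.5 CPM with IFN. The untreated KO libraries lay below all WT libraries and the IFN-treated KO libraries above them. The difference of the 2 IFN effects was 4.48 ± 0.40 (adjusted p = 1.2e-15), the largest among the lead promoters that met the rule for naming.

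The test of that difference called a larger signed IFN effect in KO than in WT cells at 365 coding promoters. It called a smaller one at 139. These were 2.61% and 0.996% of those tested, against 4.66% and 2.51% of all regions. With promoters scaled alone the counts were 296 (2.12%) and 158 (1.13%). Of lead promoters 2.33% had a larger and 0.981% a smaller effect (1.91% and 1.06% on promoters alone). Smaller is meant with the sign, as a more negative log2 fold change in KO cells, and not as a weaker one. Of the 139 windows 94 were also called lowered by IFN in KO cells. Of the 513 windows raised in KO cells, 312 were called for a larger effect there, and of the 66 raised in WT cells, 45. After AIM2, the largest excesses in KO cells were at CXCL10 (3.73 ± 0.76), CXCL11 (3.42 ± 0.48), GBP2 (3.07 ± 0.39) and IFITM1 (3.06 ± 0.25). CXCL10 and CXCL11 encode chemokines of the receptor CXCR3 on T cells, and GBP2 a guanylate-binding GTPase.

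CXCL10 (chr4:76023081-76024081) stayed low in WT cells, at 0.62 and 0.363 CPM without and 0.793 and 0.718 CPM with IFN. In KO cells it had 1.13 and 0.577 CPM without and 18.5 and 17.7 CPM with IFN. Only the IFN-treated KO libraries stood apart. CXCL11 (chr4:76035700-76036700) had 1.54 to 2.48 CPM in the WT libraries, 1.66 and 0.674 CPM in untreated KO cells and 12.6 and 14.9 CPM in IFN-treated KO cells. GBP2 (chr1:89125658-89126658) had 2.56 to 3.20 CPM in WT libraries, 1.75 and 1.44 CPM in untreated KO cells and 12.4 and 11.5 CPM in IFN-treated KO cells.

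**Figure D2:**
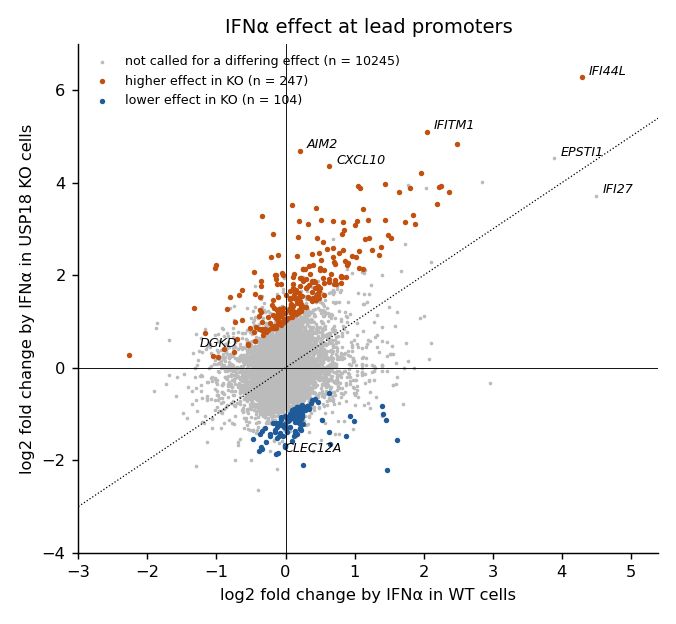
Log2 fold change of H3K27ac by IFN in WT cells (x axis) and in USP18 KO cells (y axis) at the tested lead promoters outside the Y chromosome, 1 point for each gene, with equal effects on the dotted line. The 247 promoters called for a larger effect in KO cells (orange) lie above the line. The 104 called for a smaller, meaning more negative, effect there (blue) lie below it. EPSTI1 and IFI27 were called for neither.

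The largest falls by IFN in KO cells were smaller in size than the largest rises. LRRC25 (chr19:18397189-18398189) fell from 5.59 and 4.62 CPM to 1.51 and 0.845 CPM in KO cells (log2 -2.10 ± 0.33). CLEC12A (chr12:9970861-9971861), an inhibitory C-type lectin receptor of myeloid cells, fell from 4.45 and 4.62 CPM to 1.42 and 1.03 CPM (-1.87 ± 0.31). WT cells had 8.26 and 7.62 CPM of CLEC12A without and 7.43 and 6.97 CPM with IFN, above every KO library. ATXN7, a subunit of the SAGA coactivator, fell by 1.85 ± 0.21, LRTM1 by 1.81 ± 0.20 and LHX3, a LIM homeobox factor, by 1.76 ± 0.17 on the log2 scale. The differences of the IFN effects were most negative at ATXN7 (-1.74 ± 0.27), CLEC12A (-1.73 ± 0.38), PLD4, an exonuclease of endosomes (-1.70 ± 0.20), LTK, a receptor tyrosine kinase (-1.69 ± 0.31) and PHACTR3 (-1.68 ± 0.30), among lead promoters that met the naming rule.

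Lists of genes were described by their lead promoters, beside 3.4% higher and 1.41% lower for all 10602 lead promoters tested under IFN in KO cells (3.03% and 1.68% on promoters alone). All 45 IFN-stimulated genes measured rose in KO cells, by 3.10 at the median (log2), against 28 in WT cells, where the median was 1.15. 37 of them had a larger effect in KO cells by the test of the difference. The lead promoters in general had a median of 0.06 in KO and -0.0043 in WT cells. In WT cells 44 of 10602 (0.415%) rose and 2 (0.0189%) fell, and on promoters alone 42 (0.396%) and 2 (0.0189%). The list was drawn up as known IFN targets and with earlier results of these data known.

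Genes of the IFN signaling pathway had smaller medians than the IFN-stimulated genes. Reads of near-identical genes, such as HLA, histone and zinc finger genes, may have been shared between copies. Of 24 genes of the receptor, the JAK-STAT chain and the IRF family, 3 rose in WT and 7 in KO cells, with medians of 0.08 and 0.34. For the receptor chains and kinases, named for their role, the IFN effect in KO cells was -0.21 at IFNAR1, 0.02 at IFNAR2, 0.03 at JAK1 and 0.17 at TYK2, and none was called. IRF9, the DNA-binding subunit of the complex, had 14.4 and 12.6 CPM without and 43.0 and 42.6 CPM with IFN in WT cells, and 25.4 and 20.9 CPM without and 106 and 91.3 CPM with IFN in KO cells. Its rise was 1.67 ± 0.12 in WT and 2.08 ± 0.11 in KO cells, a difference that was not called (0.42 ± 0.17, adjusted p = 0.098). IRF7, a factor that drives IFN genes, rose by 1.24 ± 0.10 and 1.78 ± 0.09. SOCS1, an inhibitor of JAK kinases, was called in KO cells only (1.63 ± 0.10, and 0.66 ± 0.12 in WT cells), with a difference of 0.98 ± 0.15 that was under the fold threshold. IRF2 and STAT3 were called for a larger effect in KO cells, by 1.28 ± 0.15 and 1.30 ± 0.18.

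IFN raised promoters of antigen presentation in KO cells: 11 of 14 genes of MHC class I presentation rose there and 0 in WT cells (median 1.32 and 0.40), and 5 were called for a larger effect in KO cells. HLA-E, a nonclassical class I molecule read by NK cell receptors, had 10.2 and 11.1 CPM without and 19.3 and 17.9 CPM with IFN in WT cells, and 17.1 and 19.5 CPM without and 75.7 and 69.8 CPM with IFN in KO cells. Its log2 fold changes were 0.80 ± 0.14 and 1.99 ± 0.12. NLRC5, the transactivator of class I genes, rose by 1.74 ± 0.13 in KO cells. Of 30 proteasome subunits 5 rose in KO cells, among them PSMB8 (1.96 ± 0.10), a catalytic subunit of the immunoproteasome, and PSMC2 (1.95 ± 0.12), an ATPase of the regulatory cap. PSMC2 is no immunoproteasome subunit, and the median of the list was 0.32.

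Of 17 genes of pyroptosis and the inflammasome, 5 rose in KO cells and 1, IFI16, also in WT cells. IFI16, a DNA sensor, had 7.23 and 5.63 CPM without and 20.2 and 19.7 CPM with IFN in WT cells, and 3.75 and 4.04 CPM without and 56.6 and 52.4 CPM with IFN in KO cells. The gene of gasdermin D, GSDMD, whose cleaved protein opens pores in the membrane, rose from 21.8 and 24.3 CPM to 56.1 and 50.6 CPM in KO cells (1.21 ± 0.11). Its WT values were 24.2 and 23.8 CPM without and 31.9 and 28.5 CPM with IFN, and the difference of the effects was 0.88 ± 0.17, under the fold threshold. Of 26 inflammatory and NF-kB target genes, 3 rose in KO cells: IL6 (2.57 ± 0.23), IL1RN (2.20 ± 0.11) and CCL2 (1.48 ± 0.21).

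Myeloid genes moved in both directions under IFN in KO cells, with 3 of 28 higher and 6 lower (median -0.14) and 0 called in WT cells. MNDA, a nuclear protein of myelomonocytic cells that carries an IFN-inducible domain, rose by 2.83 ± 0.15. CTSG, the neutrophil serine protease cathepsin G, fell from 23 and 21.2 CPM to 6.04 and 7.51 CPM (-1.71 ± 0.15), and CEBPE, a granulocyte transcription factor, from 23 and 25.2 CPM to 8.17 and 6.85 CPM (-1.68 ± 0.15). PRTN3, the gene of proteinase 3, had a log2 fold change by IFN that was lower in KO than in WT cells (difference -1.38 ± 0.14). These granule genes had between 28.4 and 77.3 CPM in every WT library for CTSG and PRTN3, with or without IFN.

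Replication and histone promoters had low values under IFN in KO cells. Of 46 genes of DNA replication and mitosis 3 fell (GINS2, E2F1 and CCNE2) and 0 rose, with a median of -0.33 and 9 of the 46 above 0. E2F1, the factor that drives entry into S phase, had 16.3 and 18.9 CPM without and 7.46 and 8.54 CPM with IFN in KO cells (-1.14 ± 0.17), against 17.4 and 13.3 CPM without and 19.1 and 15.0 CPM with IFN in WT cells. Of 52 histone genes 1, H4C3, fell (-1.03 ± 0.16), the median was -0.40 and 8 of 52 were above 0. Heat shock and stress response lists had 0 calls under IFN in either genotype.

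**Figure D3:**
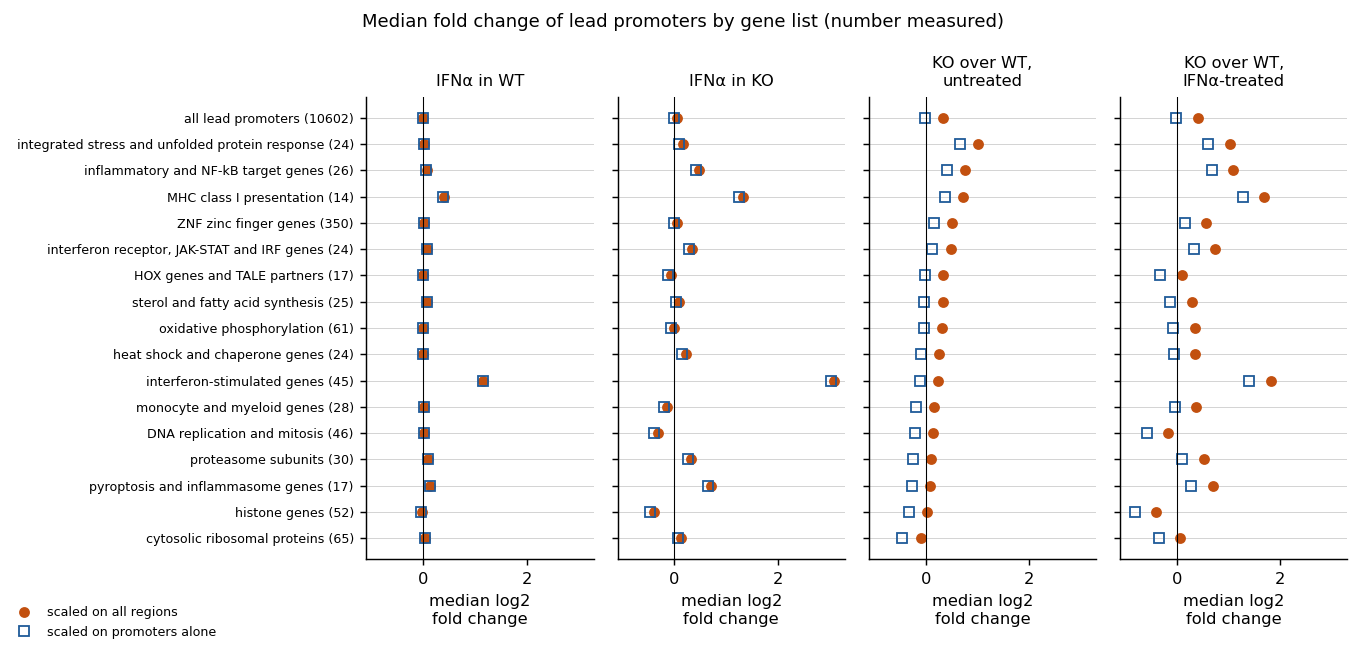
Median log2 fold change of the lead promoters in each gene list, with the number measured in brackets, for IFN in WT cells, IFN in KO cells, and KO over WT cells without and with IFN. Orange points are scaled on all regions and blue squares on coding promoters alone. In the comparisons of genotypes the squares lie to the left of the points. For untreated cells many lists change sign, among them IFN-stimulated genes (0.24 to -0.11), proteasome subunits (0.11 to -0.24) and histone genes (0.03 to -0.33). The median of all lead promoters goes from 0.34 to -0.01.

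Without IFN, USP18 KO and WT cells differed at 984 coding promoters that were higher and 412 that were lower in KO cells when scaled on all regions, 7.05% and 2.95% of those tested. Of all regions 5.66% were higher and 10.8% lower. Scaled on promoters alone the balance turned, with 328 higher (2.35%) and 850 lower (6.09%). On both scales 328 were higher and 412 lower, and none was called in opposite directions. The scales differed by a nearly constant offset (median 0.35, SD 0.0021, log2). Opposite calls were therefore not possible, and this overlap was set by the offset and is no separate support. Of the tested promoters 74.1% were above 0 when scaled on all regions. Noncoding promoters moved with coding promoters (median 0.30), while the regions that were no coding promoter had a median of -0.08.

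**Figure D4:**
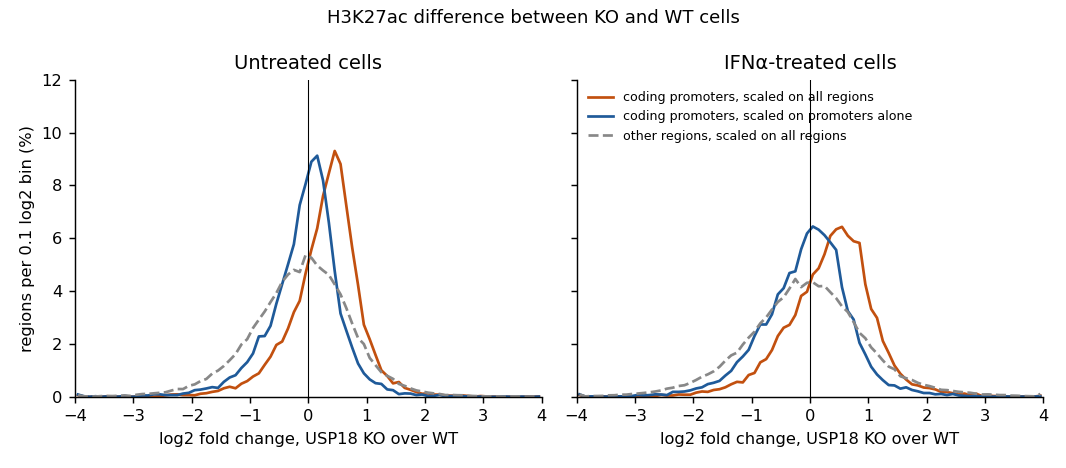
Distribution of the log2 fold change of H3K27ac, KO over WT, without IFN (left) and with IFN (right), as percent of regions in each bin of 0.1. Coding promoters scaled on all regions (orange) have medians of 0.35 and 0.41, scaled on promoters alone (blue) medians near 0, and the other regions (dashed) medians of -0.08 and -0.06. Values beyond 4 in size are drawn in the outermost bins.

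The median difference was larger in classes of higher level. From the lowest to the highest level class of promoters by mean CPM the median difference without IFN was 0.10, 0.19, 0.35, 0.43 and 0.47. Other regions taken at the same levels had medians of -0.13, -0.21, -0.01, 0.20 and 0.35. With IFN the promoters had 0.08, 0.22, 0.39, 0.52 and 0.65, and the other regions -0.07, -0.22, -0.02, 0.22 and 0.41. The medians of coding promoters lay above those of other regions in each class, which was not tested. On promoters alone the promoter medians ran from -0.25 to 0.12 without IFN and from -0.33 to 0.24 with IFN. The mean level that sorts the promoters includes the KO libraries themselves.

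**Figure D5:**
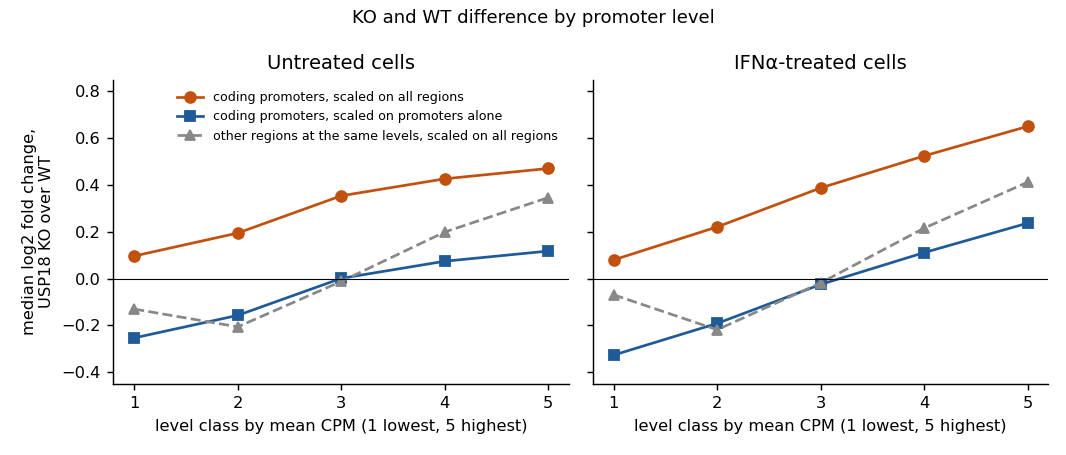
Median log2 fold change of KO over WT cells in 5 level classes that hold equal numbers of coding promoters, by mean CPM, without IFN (left) and with IFN (right). Coding promoters scaled on all regions (orange) run from 0.10 to 0.47 and from 0.08 to 0.65, and other regions at the same levels (dashed) lie below them in each class.

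Promoters with the largest falls in KO cells were low in all 4 KO libraries. CACNA2D1 (chr7:82443571-82444571), a subunit of voltage-gated calcium channels, had 27.1 to 31.0 CPM in the WT libraries and 0.355 to 1.03 CPM in the KO libraries, a log2 difference of -5.18 ± 0.24 without IFN (adjusted p = 1.3e-32). EYA1, a developmental phosphatase and coactivator, had 29.3 to 31.0 CPM and 1.22 to 1.42 CPM, and ZKSCAN4, a zinc finger gene, 27.8 to 31.3 CPM and 1.07 to 1.97 CPM. POPDC3, a cyclic AMP binding membrane protein, had 20.7 to 25.2 CPM and 1.06 to 1.69 CPM. The window of PROSER1, which lay nearer to the TSS of NHLRC3, had 11.9 to 12.7 CPM and 0.188 to 0.888 CPM. For none of these 5 did IFN give a call in either genotype. All were lower on both scales, which follows from the offset between the scales.

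The largest rises in untreated KO cells were at LHX3 (3.86 ± 0.22), PRAC2 (3.73 ± 0.35), ATF6 (3.06 ± 0.15), PIP5K1B (3.03 ± 0.29) and CRY1 (2.95 ± 0.38), which kept their calls on both scales. LHX3 (chr9:136204622-136205622) had 1.13 to 1.96 CPM in the WT libraries, 24 and 28.3 CPM in untreated KO cells and 6.75 and 8.73 CPM in IFN-treated KO cells. ATF6 (chr1:161764885-161765885), a membrane-bound sensor and transcription factor of the unfolded protein response, had 4.13 to 5.81 CPM in the WT and 41.1 to 43.2 CPM in the KO libraries. CRY1, a repressor of the circadian clock, had 0.272 to 1.59 CPM and 4.26 to 5.06 CPM.

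The promoters of the integrated stress response and the unfolded protein response were the list with the highest median in untreated KO cells, 1.01 when scaled on all regions and 0.66 on promoters alone, against 0.34 and -0.01 for all lead promoters. Of 24 measured, 12 were higher and 0 lower on the first scale, and 5 were higher on the second, and all 24 were above 0 on the first. Of all lead promoters 6.48% were higher and 2.82% lower (2.09% and 6% on promoters alone). ASNS, asparagine synthetase and a target of the factor ATF4, had 5.48 and 3.45 CPM in untreated and 4.86 and 5.64 CPM in IFN-treated WT cells, and 19.7 and 21.7 CPM and 23.3 and 23.8 CPM in KO cells (2.23 ± 0.18 without IFN, adjusted p = 3.0e-18). SESN2, a stress-induced inhibitor of mTORC1, had 4.41 to 9.32 CPM in the WT and 27.6 to 29.7 CPM in the KO libraries. DDIT4, another inhibitor of mTORC1, had 21.6 to 23.7 CPM and 78.6 to 111 CPM. None of the 24 was called under IFN in either genotype.

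Of 26 NF-kB and inflammatory promoters 8 were higher and 0 lower in untreated KO cells (median 0.76), beside 6.48% and 2.82% of all lead promoters, and 7 were higher and 1 lower on promoters alone (median 0.41). CCL2, a chemokine for monocytes, had 0.991 to 1.23 CPM in the WT libraries, 4.28 and 4.14 CPM in untreated KO cells and 12.5 and 11.0 CPM in IFN-treated KO cells. BIRC3, an inhibitor of apoptosis, was higher by 1.83 ± 0.34 and IL6 by 1.75 ± 0.40 on the log2 scale (1.48 and 1.41 on promoters alone). For MHC class I presentation 4 of 14 were higher (median 0.72), 1 on promoters alone. TAPBP, the tapasin gene, was called only when scaled on all regions (1.34 ± 0.12, and 0.99 on promoters alone), while HLA-B was called on both (1.37 ± 0.24).

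Few IFN-stimulated promoters were called between the untreated genotypes. On all regions 3 of 45 were higher and 1 was lower (median 0.24), and on promoters alone 3 were higher and 5 lower (median -0.11). The 3 were IFI27 (1.83 ± 0.55), EPSTI1 (1.72 ± 0.49) and OAS3 (1.44 ± 0.35), and the lower one was IFITM1 (-1.73 ± 0.22). The calls at IFI27 and OAS3 were lost without 1 of the untreated libraries (IFI27 without WT or KO replicate 2, at 1.55 and 1.60, and OAS3 without WT replicate 1, at 0.96). SOCS2, a feedback inhibitor of cytokine receptors, was the only gene of the IFN signaling list that was higher (2.15 ± 0.20).

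Zinc finger genes of the ZNF family, many of which encode repressors of transposable elements, were 43 of 350 higher and 2 lower without IFN (median 0.51), but 9 higher and 7 lower with promoters scaled alone (median 0.16). ZNF558 had 8.72 to 10.7 CPM in the WT and 38.3 to 50.4 CPM in the KO libraries and was called on both scales, and ZNF630 had 3.54 to 5.33 CPM and 0.349 to 0.976 CPM. The median of cytosolic ribosomal protein promoters was -0.10 on all regions and -0.45 on promoters alone over 65 genes, with 2 lower (RPL37 and RPL26) and 0 higher on both scales. RPL37 had 65.7 to 75.9 CPM in the WT and 29.0 to 45.2 CPM in the KO libraries. Oxidative phosphorylation genes had a median of 0.32 on all regions and -0.03 on promoters alone.

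Myeloid promoters went both ways in untreated KO cells, with 5 of 28 higher and 3 lower (2 and 5 on promoters alone). FCER1G and TYROBP, the signaling chains of activating myeloid receptors, were higher. FCER1G had 27.2 to 30.7 CPM in the WT and 81.8 to 94.2 CPM in the KO libraries, and TYROBP 22 to 27.4 CPM and 60.9 to 88.0 CPM. S100A9 and S100A8, the subunits of calprotectin, and MNDA were lower. S100A9 had 10.8 to 13.7 CPM in the WT and 3.47 to 4.36 CPM in the KO libraries. Of the housekeeping genes looked up, ACTB had 0.63 ± 0.09 and GAPDH 0.25 ± 0.12 on all regions without a call, and 0.27 and -0.10 on promoters alone, where GAPDH changed sign. PLK2 and SGK1 were not called without IFN (0.48 ± 0.13 and 0.90 ± 0.23).

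Some of the difference was clustered along chromosomes. Among 440 bins of 5 Mb with at least 8 lead promoters, the median bin was 0.35 without IFN and 403 bins had a median above 0, on the scale of all regions that raises the median promoter by 0.35. The highest bin, at 170 to 175 Mb of chromosome 1, had a median of 1.37. Between 160 and 180 Mb of chromosome 1 the 79 lead promoters had a median of 1.13, with 41 higher and 8 lower, and the 855 other regions one of 0.50. On promoters alone the lead median there was 0.78, and the windows called higher fell in number from 57 to 31. At the end of the long arm of chromosome 9 the 68 lead promoters had a median of 0.97, with 31 higher and 0 lower, and the other regions 0.73. On promoters alone that median was 0.62, with 15 windows called higher in place of 43. ATF6, FCER1G and SDHC lay in the first stretch and LHX3 in the second, and the differences at ATF6 (3.06) and LHX3 (3.86) were above the medians of their stretches. Without both stretches the call counts stayed within 1.5 times the full counts. That outcome was fixed beforehand, because the stretches held only 57 and 43 of the 984 windows called higher without IFN. The cause was not tested.

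After IFN the genotypes differed more widely, at 2073 higher and 560 lower coding promoters in KO cells (14.8% and 4.01% of those tested, against 11.3% and 13.4% of all regions). Scaled on promoters alone the counts were 698 (5%) and 1286 (9.21%), and 698 and 560 were called on both scales. This overlap too was set by the nearly constant offset between the scales (median 0.41, SD 0.0029). Among the largest rises were CXCL10 (4.56 ± 0.28), RABGAP1L (3.97 ± 0.29), IL6 (3.72 ± 0.27) and a window of CCDC3, whose nearest TSS was that of OPTN (3.69 ± 0.18). The largest falls were at CACNA2D1, PROSER1, EYA1, ID1 and ZKSCAN4, of which 4 were named above. ID1, an inhibitor of helix-loop-helix factors, had 24.3 to 30.9 CPM in the WT and 1.5 to 2.21 CPM in the KO libraries (-4.32 ± 0.21).

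IL6 (chr7:22726069-22727069), an inflammatory cytokine, had 0.517 to 1.29 CPM in the WT libraries, 2.53 and 2.41 CPM in untreated KO cells and 14.5 and 15.0 CPM in IFN-treated KO cells. RABGAP1L (chr1:174873885-174874885), a GTPase-activating protein, had 0.207 to 1.03 CPM in the WT and 0.698 and 1.06 CPM in the untreated KO libraries, and 13.8 and 13.5 CPM with IFN. It lay in the stretch of chromosome 1 between 160 and 180 Mb.

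Among lists, 42 of 45 IFN-stimulated genes were higher in IFN-treated KO cells (median 1.81) and 31 on promoters alone (median 1.40), with 0 lower on either scale, beside 14% of all lead promoters higher and 3.9% lower (4.44% and 8.91% on promoters alone). For MHC class I presentation 12 of 14 were higher (median 1.69), and 11 higher with 1 lower on promoters alone. Of 26 inflammatory and NF-kB target genes 15 were higher (median 1.09), 8 higher and 1 lower on promoters alone. TNF, the cytokine tumor necrosis factor, had 14.8 to 18.2 CPM in the WT libraries, 48.1 and 46.5 CPM in untreated KO cells and 87.7 and 87.4 CPM in IFN-treated KO cells. FPR1, a receptor for formyl peptides, had 3.10 to 6.15 CPM in the WT libraries and 17.6 and 15.1 CPM in IFN-treated KO cells. SGK1, a serum-induced kinase, had 3.08 to 4.34 CPM and 10.3 and 9.11 CPM in the same libraries. For FPR1 and SGK1 these values do not separate an IFN effect from a genotype difference without IFN. At SGK1 that difference was positive but not called. PLK2 was not called (0.54 ± 0.13).

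For replication and histone promoters the scale decided the counts after IFN. Of 46 replication and mitosis genes the promoters called on all regions were 2 higher and 3 lower (median -0.16), and 0 higher and 13 lower on promoters alone (median -0.58). Of 52 histone genes 3 were lower on all regions (median -0.40) and 12 on promoters alone (median -0.81), with 0 higher on either. H3C13 had 56.4 to 63.3 CPM in the WT libraries, 38.1 and 31.7 CPM in untreated KO cells and 32.4 and 25.6 CPM in IFN-treated KO cells. The stress response list stayed at 12 of 24 higher (9 on promoters alone), with a median of 1.02. In sterol synthesis SREBF1 was lower (-1.14 ± 0.13) and SREBF2, which encodes the related factor, higher (1.12 ± 0.11, and 0.70 on promoters alone, where it was not called).

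Alternative promoters of a gene could move apart. Among 460 genes with tested windows over 2000 bp apart, 1 was called in opposite directions under IFN in KO cells, 3 between untreated genotypes and 6 between IFN-treated genotypes. At BATF2, a factor of the AP-1 family induced by IFN, the window at chr11:64996522-64997522 rose from 7.51 and 5.97 CPM to 49.6 and 45.6 CPM with IFN in KO cells (2.81 ± 0.15). The window at chr11:64989831-64990831, 6691 bp away, fell from 7.24 and 4.72 CPM to 2.22 and 2.16 CPM (-1.45 ± 0.28). At DHRS3, a retinal reductase, a window was higher (1.75 ± 0.29) and another, 21692 bp away, lower (-2.48 ± 0.25) in untreated KO cells. At SMAD3, a mediator of TGF-beta signals, 2 windows 60108 bp apart differed by 1.5 ± 0.12 and -2.20 ± 0.22 between IFN-treated genotypes. RASGRP3 and DYSF completed the 5 largest, and for DYSF the higher window was not called on promoters alone.

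The share of promoters with an ISRE core followed the IFN calls. The core was in 10.3% of the tested promoters, in 74.2% of those raised in WT cells (49 of 66), in 42.7% of those raised in KO cells (219 of 513) and in 5.26% of those lowered in KO cells. Of promoters with 2 or more cores 14.4% rose in WT and 33.5% in KO cells, of those with 1 core 1.77% and 12.5%, and of those without 0.136% and 2.35%. The NF-kB letters (GGGA, any base, TTTCC, both strands) were in 1.62% of tested promoters, in 6.63% of those raised by IFN in KO cells and in 3.05% of those higher in untreated KO cells. The letters TGATGCAAT, bound by CHOP with a C/EBP partner, were in 0.322% of tested promoters and in 1.42% (14 of 984) of those higher in untreated KO cells. The letters CCGGAAGT of ETS factors were in 9.40% of tested promoters and in 1.21% of those lower in untreated KO cells. This was not particular to ETS. All other letters searched were less frequent there too, except those of the TATA box, AP-1, the ISRE and NF-kB. Promoters lower in untreated KO cells had a median of 3.63 CPM, against 13.3 CPM for those not called. Promoters with the ETS letters had a median of 19.8 CPM, against 11.7 CPM without. Raised promoters were also poorer in G and C, with a median of 56.2% (WT) and 55.7% (KO) against 62.4% and 62.5% for promoters without a call. These shares were not tested, and overlapping windows share their letters.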

How the data were processed

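The authors mapped reads to hg38 with Bowtie2 and quantified H3K27ac with HOMER within 1000 bp at pooled ATAC-seq peaks; the submitters' processing notes also name DESeq2. The deposited values are estimated counts (tags, 52.2% whole numbers), rounded to whole counts here. No input library was analysed, and the study describes the 2 libraries per group as biological replicates. Their counts differed by more than sampling noise (chi-square per degree of freedom 1.46 to 2.74), and p-values measure the spread between these libraries.

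A fit of 8 libraries by edgeR 4.0.16 (R 4.3.3) with a group term was run on the 123276 regions that reached 10 counts in 2 libraries, with TMM scaling over all regions and, for the second scale, over the 13961 coding promoters alone. CPM values (library-size-scaled counts) use the TMM-scaled size over all regions. The share of tags was tested by exact permutation in scipy 1.17.1. Calls needed a log2 fold change over 1 and an adjusted p under 0.05. Each SE was derived from the test, as the size of the log2 fold change divided by the square root of the F statistic. It rests on the spread fitted over all 8 libraries, not on the 2 libraries of a group alone. Fits were tested on simulated data.

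Transcripts were named from RefSeq (14606 windows matched, and 129 took the nearest gene); sequences came from hg38 and annotation from GENCODE. The genes and lists were chosen with earlier results of these data known. Named were, per comparison, the 5 largest rises and falls among called lead promoters with a mean of at least 30 counts over the libraries compared and groups that did not overlap, the 5 highest lead promoters, USP18, PLK2, SGK1, FPR1, ACTB and GAPDH, up to 3 rises and 3 falls in each list, and the 5 genes whose windows differed most in opposite directions. For the difference of IFN effects no overlap was asked. Lists leave out the Y chromosome, and some genes that met the rule are not reported here.

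Alternatives were other scalings (summed counts, library totals, loess offsets), DESeq2 1.42.0, other filters and thresholds, a replicate block, fits on 4 libraries and leaving out each library. Leaving out the stretches of chromosomes 1 and 9 was added after the data were seen.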

Additional observations from a re-analysis of the deposited data

Results flagged for a closer look

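The IFN effect differed between USP18 KO and WT cells at 365 coding promoters with a larger and 139 with a smaller log2 fold change in KO cells, by the test of the difference itself (edgeR quasi-likelihood test, Benjamini-Hochberg adjustment). Among lead promoters that met the naming rule, the effect in KO cells exceeded that in WT cells most at AIM2 (4.48), CXCL10 (3.73), CXCL11 (3.42), GBP2 (3.07) and IFITM1 (3.06). At AIM2, GBP2 and IFITM1 the untreated KO libraries lay below the untreated WT libraries, and at AIM2, CXCL10, CXCL11 and GBP2 IFN gave no call in WT cells. The effect was more negative in KO than in WT cells at ATXN7 (-1.74), CLEC12A (-1.73), PLD4 (-1.70), LTK (-1.69) and PHACTR3 (-1.68). At these genes IFN lowered H3K27ac in KO cells and gave no call in WT cells. The values are log2 differences of the effects. No explanation was tested, and groups of 2 libraries are too small to look for a library that stands apart.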

How the results depend on the processing

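No called difference of a named gene changed sign under any alternative, but the balance of higher and lower calls between the genotypes turned when scaled on promoters alone. On that scale, 328 coding promoters were higher and 850 lower in untreated KO cells (median 0.0022), and 698 and 1286 with IFN (median -0.0050), with medians of -0.0093 for IFN in KO cells and 0.0084 for the difference of effects. Scaled on summed counts, IFN lowered 357 promoters in KO cells (median -0.076), and 629 were higher in untreated KO cells (0.21). With IFN 1004 were higher and 986 lower in KO cells (0.13). The IFN effect was called more negative in KO than in WT cells at 238 (median of the difference -0.066). Library totals gave medians of -0.012, 0.30, 0.29 and 0.0034 for IFN in KO cells, untreated cells, IFN-treated cells and the difference, and loess offsets 0.20 and 0.27 for the genotypes. Medians near 0 crossed it, and their cause was not tested. Without a fold threshold 128 promoters rose and 8 fell in WT cells, and 2602 and 1426 in KO cells. In KO against WT cells 6057 were higher and 1061 lower without IFN, and 6585 and 1438 with IFN. The IFN effect was more positive in KO cells at 1179 and more negative at 574. The falls in WT cells numbered 0 with DESeq2 (124 had an unadjusted p under 0.05, and 507 in edgeR). They numbered 6 in a fit of the 4 WT libraries and 1 at an adjusted p under 0.01. In a separate fit of the 4 IFN-treated libraries the median between the genotypes was 0.37. At least 30 counts gave medians of 0.31 without IFN and 0.10 for the difference.

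Leaving out each library in turn gave 0 to 4 falls in WT cells (0 without replicate 1 of IFN-treated WT cells) and medians of -0.052 to 0.040 in WT, 0.013 to 0.073 in KO, 0.36 to 0.47 between IFN-treated genotypes and 0.016 to 0.12 for the difference. The difference in the share of tags was 0.33 to 0.36, with exact p = 0.0571, the smallest that 4 against 3 libraries allow. By replicate number, deviations from the group means correlated at 0.19 between untreated and IFN-treated KO libraries. In the other pairs of groups the correlations were -0.02 to 0.03. The main fit did not pair the samples. A replicate block gave 512 higher and 206 lower for IFN in KO cells. Between the genotypes it gave 978 higher and 414 lower in untreated cells and 2073 and 557 with IFN, and it ended the call of ZNF286A. Of 3444 values of named genes under alternatives, 137 lost the call and 0 turned direction. Depth limits the low promoters, where the SD between replicates was 0.31.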
